A study of Mus musculus with 4 samples.

Results

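Mitochondrial ribosomal protein genes are described here in mouse E14 embryonic stem cells, in wild-type cells and in cells targeted at Ssrp1. The genes were taken by name, as every symbol of the count table made of Mrpl or Mrps, a number and at most 1 letter, which gave 78 of the 55353 symbols. Of these, 49 carry a large-subunit name (Mrpl) and 29 a small-subunit name (Mrps). The RNA came from 2 libraries of wild-type cells (control 1 and 2) and 2 libraries of cells in which Ssrp1, a subunit gene of the histone chaperone FACT, had been targeted with Cas9 (knockout 1 and 2). All 4 are of the strain labelled 12910la and were grown with serum and LIF on gelatin. The labels speak of targeted cell lines without saying which line or clone gave which library, nor whether replicates were grown as separate cultures, so the p-values below measure the spread between these libraries, which may be technical. The shared treatment text also mentions an shRNA against Usp7 and a pSuper puro vector given to wild-type cells, with puromycin, and leaves unsaid if it was used on these controls.

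The mitochondrial ribosome translates the few mRNAs that the mitochondrial genome still encodes, all of them for subunits of the respiratory chain and ATP synthase. Its RNA comes from mitochondrial DNA, but every one of its proteins is encoded in the nucleus, made on cytosolic ribosomes and imported. Some of these proteins descend from bacterial ribosomal proteins, and others were added in the mitochondrial lineage. Embryonic stem cells rely strongly on glycolysis, and mitochondrial output changes as they leave pluripotency.

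Total counts were between 22611434 and 25344190 per library. Ssrp1 itself was at 294.0 ± 16.6 CPM (counts scaled to a common library size, SD, n = 2) in the controls and 316.4 ± 15.4 CPM in the targeted cells, with an adjusted p of 0.226 by edgeR, so the transcript does not check the labels and the targeted samples are called knockout-labelled libraries. Scaling by library size alone gave 0.0308, and leaving out knockout replicate 1 gave 0.0108. Supt16, the other FACT subunit gene, rose by 0.19 ± 0.06 log2 units (adjusted p 0.018), a call lost without control replicate 1 (0.235) or control replicate 2 (0.139). Sums of cell type markers are CPM by total counts, without TMM scaling. The 8 embryonic stem cell markers summed to between 4569 and 4676 CPM in the controls and between 3855 and 3901 CPM in the knockout-labelled libraries. The 7 fibroblast markers summed to between 85.0 and 94.3 CPM over all 4, with Postn at 0, and the 5 neuroectoderm markers to between 41.6 and 45.8 CPM. The 7 primitive endoderm markers summed to 20.7 to 20.8 CPM in controls and 61.7 to 62.0 CPM in knockout-labelled libraries, and the 6 markers of 2-cell-like cells to 0.197 to 0.619 CPM and 34.3 to 37.5 CPM. The 5 mesendoderm markers summed to 6.94 to 7.12 CPM and 9.25 to 10.2 CPM. Apart from Postn, 0 of the markers were at 0 in all 4 libraries. By edgeR, 6 of the 8 stem cell markers, 0 of 6 tested primitive endoderm markers and 0 of 5 tested 2-cell-like markers were called lower, and 1, 5 and 5 were called higher. Of 4 tested fibroblast markers 1 was called higher and 1 lower. Of 3 tested neuroectoderm markers 0 were called higher and 1 lower, and of 2 tested mesendoderm markers 0 were called either way. Over all tested genes 16.5% were called higher and 17.2% lower. The part of these shifts in the results below was not tested.

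As a class the mitochondrial ribosomal protein genes stayed near their control level. Of the 78 genes, 77 passed the filter on low counts, and their log2 fold changes lay between -0.43 and 0.59, with 50 of them within 0.2 of no change and 0 at 1 or beyond. An adjusted p under 0.05 by edgeR's quasi-likelihood test marks a gene as called. By this rule 10 genes rose (Mrpl34, Mrps12, Mrpl20, Mrpl58, Mrpl12, Mrpl13, Mrps25, Mrpl37, Mrpl51 and Mrps5) and 3 fell (Mrps16, Mrpl9 and Mrpl17). The shares were 13% higher and 3.9% lower, where 16.5% of all 17482 tested genes were called higher and 17.2% lower. The shares of all tested genes called under other settings are not given here, so the counts that follow cannot be set beside them. With scaling by library size alone, where the median log2 fold change of all tested genes was 0.087, the counts were 19 higher and 1 lower. They were 6 higher and 1 lower without control replicate 1, 6 and 2 without control replicate 2, and 15 and 5 without knockout replicate 1; DESeq2 gave 8 and 1. The median log2 fold change was 0.069 over the 77 genes and 0.0035 over all tested genes. Both knockout-labelled libraries lay above both controls for 35 genes (45.5%) and below both for 13 (16.9%), against 33.3% in each direction over all tested genes.

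**Figure D1:**
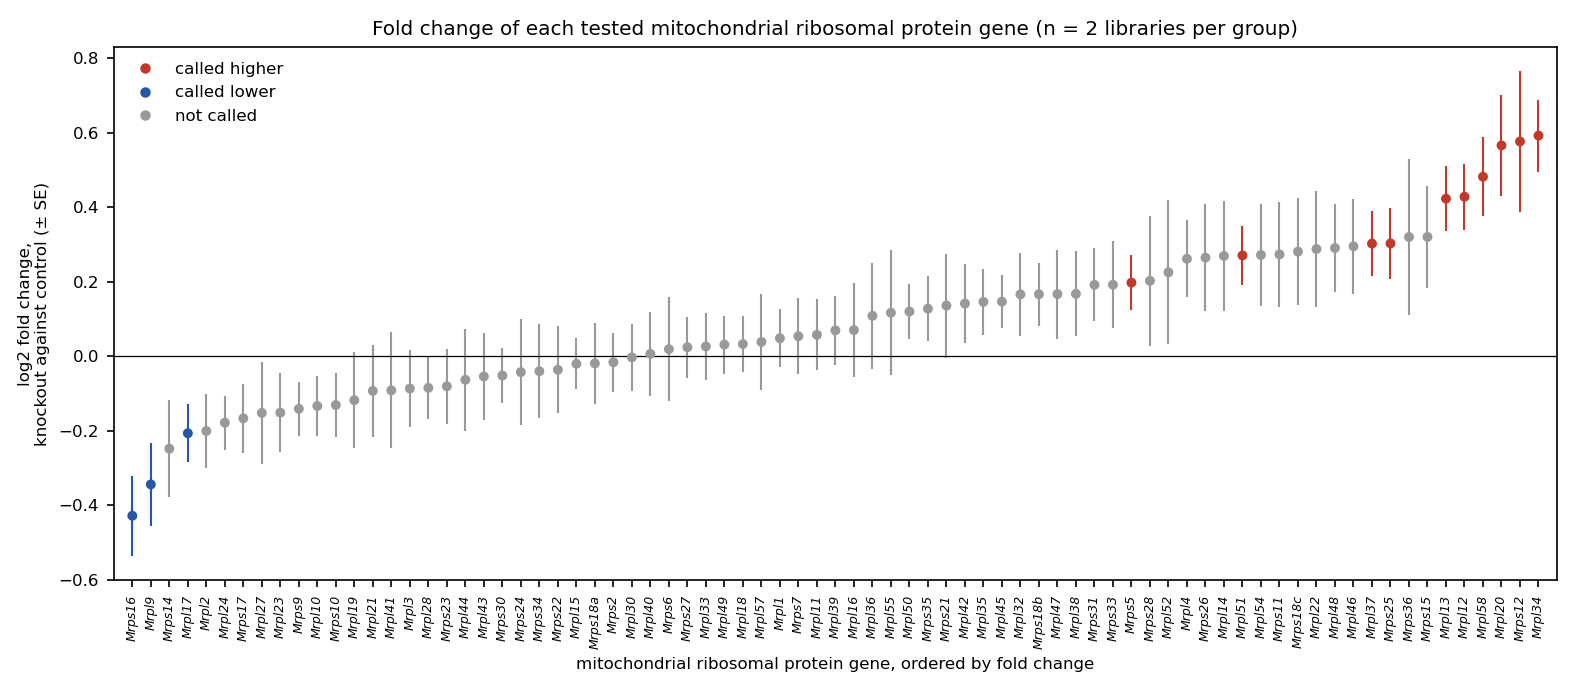
Log2 fold change, knockout against control, of each of the 77 tested mitochondrial ribosomal protein genes with its standard error (vertical line), ordered from lowest to highest. Points run from -0.43 (Mrps16) to 0.59 (Mrpl34), 10 are called higher and 3 lower, and the rest form a continuous slope through 0.

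The counts behind these values were moderate. A tested gene had between 85 and 2807 counts in a library, with a median of 597, and its log2 fold change had a standard error between 0.068 and 0.21 (median 0.11). The error of a single gene does not measure the spread of the median shift of the class, 0.069. Over all pairs of 1 knockout-labelled library and 1 control, the SD of that median was 0.018. These pairs share libraries, so they are not independent. At an unadjusted p under 0.05 there were 14 positive and 4 negative genes, 18 in all, where 43.1% of all tested genes reached that level.

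The summed level of the tested genes was 2414 and 2408 CPM in the controls and 2501 and 2515 CPM in the knockout-labelled libraries. The groups did not overlap, and the mean sum was 4.03% higher (exact permutation test over libraries, 2-sided, p = 0.333, the smallest that 2 against 2 can give). With scaling by library size alone it was 10.2% higher. Large-subunit genes summed to 1531 and 1535 CPM in the controls and 1607 and 1621 CPM in the knockout-labelled libraries, 5.27% higher. Small-subunit genes summed to 883.0 and 872.3 CPM in the controls and 894.6 and 893.4 CPM in the knockout-labelled libraries, 1.86% higher. The ratio of the small-subunit sum to the large-subunit sum was 0.577 and 0.568 in the controls, against 0.557 and 0.551. In bulk RNA such sums cannot tell fewer or more cells of a kind from a different amount of RNA per cell.

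The largest rise was in Mrpl34, which encodes a small, highly basic large-subunit protein with a bacterial counterpart. Mrpl34 (chromosome 8, 71464959 to 71465747, mm10) was at 27.8 and 26.7 CPM in the controls and 38.3 and 43.8 CPM in the knockout-labelled libraries. The 2 groups were well apart, with a log2 fold change of 0.59 ± 0.10 (SE, n = 2 per group) and an edgeR adjusted p of 8.3e-05. Per length it was also the most abundant of all 77 genes: its mean over the 4 libraries was 56.2 CPM per kilobase of exon, and the 2 knockout-labelled libraries, at 63.1 and 72.1, stood above the controls at 45.8 and 43.9.

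Mrps12 encodes a protein of the decoding centre, where the small subunit checks the match between codon and tRNA. Mrps12 (chromosome 7, 28739641 to 28741820) was at 5.12 and 4.25 CPM (113 and 104 counts) in the controls, against 6.85 and 7.10 CPM (160 and 169 counts). Its log2 fold change of 0.58 ± 0.19 was almost as large as that of Mrpl34, but with an adjusted p of 0.023. The call was lost under DESeq2 (adjusted p 0.084), without control replicate 2 (0.184) and without knockout replicate 2 (0.052). Mrpl20, for a conserved large-subunit protein that binds rRNA, was at 9.75 and 9.39 CPM in the controls and 14.7 and 13.7 CPM in the knockout-labelled libraries (log2 fold change 0.57 ± 0.14, edgeR adjusted p 0.0029). Each pair of libraries lay close together and the pairs did not overlap.

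Mrpl58 encodes a peptidyl-tRNA hydrolase that frees stalled chains and is also built into the large subunit. It was at 22.6 and 22.3 CPM in the controls and 28.8 and 33.9 CPM in the knockout-labelled libraries, where the second library was the highest (log2 fold change 0.48 ± 0.11, edgeR adjusted p 0.0015). Mrpl12, whose product forms the flexible stalk that recruits translation factors, was at 40.0 and 35.1 CPM in the controls and 49.3 and 51.7 CPM in the knockout-labelled libraries (0.43 ± 0.09, adjusted p 8.3e-04). The controls of Mrpl12 differed more from each other than the other pair did, and both stayed below it. Mrpl13, for another conserved large-subunit protein, was at 33.0 CPM in both controls and at 45.5 and 42.9 CPM in the knockout-labelled libraries (0.42 ± 0.09, adjusted p 8.6e-04). These 3 genes, with Mrpl34, Mrpl20 and, among the falls, Mrps16, are the 6 of 13 called genes whose call held in each of the 12 other settings tried, which vary the scaling, filter, tool, block and libraries.

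The other 4 rises were smaller, and each was lost when 1 library was left out. Mrpl37, for a large-subunit protein without a bacterial counterpart, was at 34.0 and 34.2 CPM in the controls and 41.8 and 42.3 CPM in the knockout-labelled libraries (0.30 ± 0.09, edgeR adjusted p 0.011). The replicates of Mrpl37 nearly coincided, yet its adjusted p was 0.100 without control replicate 1 and 0.085 without control replicate 2. Mrps25, for a mitochondria-specific small-subunit protein, was at 32.2 and 32.8 CPM in the controls and 37.4 and 42.9 CPM in the knockout-labelled libraries (0.30 ± 0.09, adjusted p 0.017). Its adjusted p was 0.119 without control replicate 1, 0.079 without control replicate 2 and 0.141 without knockout replicate 2.

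Mrpl51, a mitochondria-specific large-subunit gene, was at 47.4 and 51.9 CPM in the controls and 58.7 and 61.2 CPM in the knockout-labelled libraries (0.27 ± 0.08, edgeR adjusted p 0.013, and 0.238 without control replicate 1). Mrps5, whose product lies near the channel through which mRNA enters, was at 82.3 and 74.9 CPM in the controls and 92.7 and 87.6 CPM in the knockout-labelled libraries (0.20 ± 0.07, adjusted p 0.043). For Mrps5 the higher control and the lower knockout-labelled library were only a few CPM apart. Its adjusted p was 0.086 without control replicate 1, 0.464 without control replicate 2, 0.091 without knockout replicate 1 and 0.090 under DESeq2.

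Among the falls, Mrps16 stood furthest from its controls. It encodes a conserved small-subunit protein, and loss of the human gene product impairs mitochondrial translation. Mrps16 (chromosome 14, 20389304 to 20393634) was at 32.0 and 32.1 CPM in the controls and 26.2 and 21.4 CPM in the knockout-labelled libraries. Both were below the controls, by unequal amounts, and the log2 fold change was -0.43 ± 0.11 with an edgeR adjusted p of 0.0041. Mrpl9, for a conserved large-subunit protein, was at 25.5 and 23.6 CPM in the controls and 20.2 and 18.5 CPM in the knockout-labelled libraries (-0.34 ± 0.11, adjusted p 0.020). Its adjusted p was 0.066 under DESeq2, 0.174 without control replicate 1, 0.069 without knockout replicate 2 and 0.073 with scaling by library size alone.

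Mrpl17, a conserved large-subunit gene, was at 60.0 and 63.7 CPM in the controls and 54.7 and 52.5 CPM in the knockout-labelled libraries (-0.21 ± 0.08, edgeR adjusted p 0.045). This was the weakest of the 13 calls: 9 of the 12 settings took it above the threshold, among them leaving out control replicate 1 (0.101), control replicate 2 (0.345) or knockout replicate 2 (0.094), and DESeq2 (0.129). The plot of the called genes by library shows the value of each library. The genes were called from these same libraries, so the gap between groups adds no support to the calls.

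**Figure D2:**
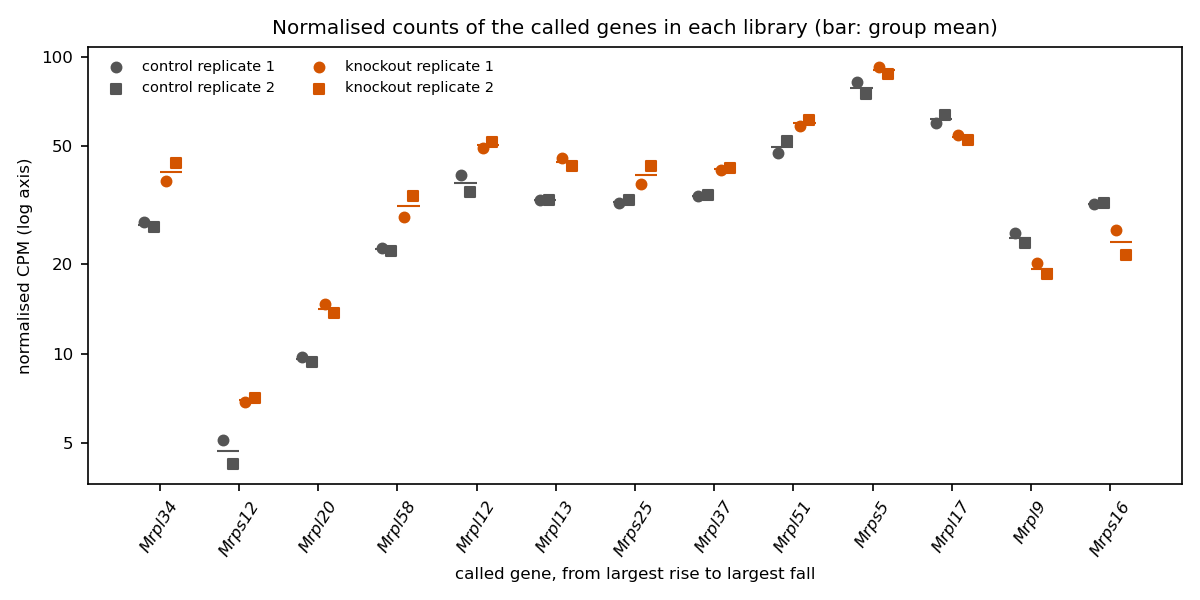
Normalised CPM (log axis) of the 13 called genes in each library, with controls in grey, knockout-labelled libraries in orange, circles and squares for replicates 1 and 2, and short bars for group means. In all 13 genes the 2 groups do not overlap, which their choice by a test on these libraries makes likely. Between group means Mrpl34 shows the largest ratio among the rises and Mrps16 among the falls.

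The 2 knockout-labelled libraries did not always move together. The median absolute difference between replicates over the 77 genes was 0.10 log2 units in the knockout-labelled libraries and 0.069 in the controls. In Mrps14, a conserved small-subunit gene, knockout 1 was at 36.4 CPM, within the controls at 38.2 and 34.1, and knockout 2 was at 24.5 CPM, so the groups overlapped (log2 fold change -0.25 ± 0.13, edgeR adjusted p 0.153). Without knockout replicate 1 the log2 fold change of Mrps14 was -0.56 with an adjusted p of 3.5e-06. Mrpl4, a conserved large-subunit gene, was at 31.5 and 34.8 CPM in the controls, 35.6 in knockout 1 and 43.9 in knockout 2 (0.26 ± 0.10, edgeR adjusted p 0.057). Both knockout-labelled libraries of Mrpl4 lay above both controls, by unequal amounts. Without knockout replicate 1 its log2 fold change was 0.41. With all 4 libraries Mrpl4 was called higher with scaling by library size alone (edgeR adjusted p 0.015) and upper-quartile scaling (0.037). It was also called with no filter on low counts (0.048), at least 5 CPM in 2 libraries (0.039) and the replicate block (0.024). Mrps14 and Mrpl4 were chosen after their values were seen.

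The genes were also split by the naming of mitochondrial ribosomal proteins, in which conserved ones have a bacterial counterpart. This naming puts Mrps18a and Mrps18b among those specific to mitochondria, although their family descends from a bacterial protein. The counts read beside the 16.5% of all tested genes called higher and 17.2% called lower. Of 30 conserved large-subunit genes tested, 4 rose (13.3%) and 2 fell (6.67%), with a median log2 fold change of 0.040, and of 16 conserved small-subunit genes 2 rose (12.5%) and 1 fell (6.25%), with a median of 0.036. Of 19 large-subunit genes specific to mitochondria, which include Mrps18a and Mrps30 because their products sit in the large subunit, 2 rose and 0 fell (median 0.12). Of 10 small-subunit genes specific to mitochondria 1 rose and 0 fell (median 0.15). The difference between the classes was not tested. Mrpl58 and Mrps36 stand outside these classes, Mrps36 because its product is now placed in the 2-oxoglutarate dehydrogenase complex; Mrps36 had the fewest counts of the tested genes and was at 3.85 and 4.08 CPM in the controls and 4.75 and 5.17 CPM in the knockout-labelled libraries (0.32 ± 0.21, edgeR adjusted p 0.255).

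The Mrps18 family has 3 paralogs that descend from 1 bacterial protein. Mrps18c, which takes the place of the bacterial protein in the small subunit, was at 10.9 and 9.27 CPM in the controls and 11.8 and 12.7 CPM in the knockout-labelled libraries (0.28 ± 0.14, edgeR adjusted p 0.140). Mrps18b, also of the small subunit, was at 52.1 and 50.9 CPM in the controls and 53.4 and 62.2 CPM in the knockout-labelled libraries (0.17 ± 0.08, adjusted p 0.141). For these 2 paralogs the groups did not overlap, and the test did not call either; Mrps18b was called without knockout replicate 1 (adjusted p 0.0061). Mrps18a, of the large subunit, was at 21.9 and 23.4 CPM in the controls and 21.2 and 23.5 CPM in the knockout-labelled libraries, with overlapping groups (-0.019 ± 0.11, adjusted p 0.911). Per kilobase of exon the mean levels over 4 libraries were 26.2 CPM for Mrps18b, 10.4 for Mrps18c and 6.10 for Mrps18a.

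Levels per length spread widely, although the products are assembled at a fixed ratio. The mean over the 4 libraries ran from 2.07 to 56.2 CPM per kilobase of exon, with a median of 9.71. After Mrpl34 came Mrpl18 (44.5), whose bacterial counterpart binds an rRNA that the mitochondrial ribosome has lost, Mrpl24 (42.6), at the exit tunnel, and Mrpl28 (35.0). Mrpl18 was at 43.4 and 44.5 CPM per kilobase in the controls against 45.8 and 44.1, Mrpl24 at 42.7 and 47.7 against 38.8 and 41.1, and Mrpl28 at 34.5 and 37.6 against 33.5 and 34.5. Mrpl18 and Mrpl24 overlap in these values, so their order is not set beyond the spread. None of the 3 was called, with log2 fold changes of 0.033 ± 0.07, -0.18 ± 0.07 and -0.085 ± 0.08 (edgeR adjusted p 0.775, 0.064 and 0.463). Mrpl24 was called lower with the replicate block (edgeR adjusted p 0.045), and its log2 fold change was -0.22 without knockout replicate 2.

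At the other end were Mrps26 (2.32 CPM per kilobase) and Mrpl48 (2.07). Both were higher in the knockout-labelled libraries without a call: Mrps26 was at 9.16 and 9.23 CPM against 11.4 and 10.7 CPM (0.26 ± 0.14, edgeR adjusted p 0.168) and Mrpl48 at 15.6 and 14.8 CPM against 18.3 and 18.8 CPM (0.29 ± 0.12, adjusted p 0.064). Mrpl48 was called with scaling by library size alone (edgeR adjusted p 0.019), upper-quartile scaling (0.044) and at least 5 CPM in 2 libraries (0.042). It was not called by DESeq2 (adjusted p 0.163). These lengths count every annotated exon, 4358 and 8152 bases for these 2 genes, so a gene with a long rarely used exon appears low.

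One gene, Mrpl53, could not be tested. It had 0 counts in all 4 libraries. In GENCODE M21 its exons (chromosome 6, 83109040 to 83109939) overlap the protein-coding model Gm42688 on the same strand over 88.0% of their length, and Gm42688 had 9, 9, 14 and 7 counts. How reads in shared exons were counted is not given in the sources used here, so the 0 does not show that Mrpl53 is silent.

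Shared exons also touch other genes of the class. Of the 78 genes, 18 overlap exons of another gene over more than 10% of their exonic length, 17 of them tested, and whether counting used strand is not given. Mrps25 shares 69.8% of its exonic length with Nr2c2 on the opposite strand, which had a log2 fold change of 0.14 (edgeR adjusted p 0.132). Mrps34 shares 63.4% with Mapk8ip3 on the opposite strand and was at 18.5 and 15.4 CPM in the controls and 17.0 and 15.8 CPM in the knockout-labelled libraries (-0.040 ± 0.13, adjusted p 0.837). Among the 60 tested genes without such an overlap 8 were higher and 3 lower, so the calls with an overlap are Mrps25 and Mrpl12. Mrpl12 shares 13.1% with the noncoding Gm16755, a symbol not in the count table. This split was added after the values were seen.

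Many of these genes start close to another gene on the opposite strand. A protein-coding gene begins within 1000 bp of the start of 33 of the 78, and in 31 of these pairs both genes were tested, with the pair Mrpl46 and Mrps11, which are each other's neighbour, counted from both sides. Neighbours were called higher in 5 pairs and lower in 4, where 16.5% of all tested genes were called higher and 17.2% lower. The gene of the class was called in 5 pairs. Log2 fold changes had the same sign in 16 of the 31 pairs. With so few calls, counts of pairs called together cannot show whether neighbours change together. In 0 of the 31 pairs were both called in the same direction, and in 1 pair they were called in opposite directions. That pair was Mrps5 and the zinc-finger gene Zfp661, whose starts are 128 bp apart: Zfp661 was at 11.9 and 15.4 CPM in the controls and 8.56 and 8.24 CPM in the knockout-labelled libraries (log2 fold change -0.70 ± 0.15, edgeR adjusted p 0.0012) while Mrps5 was higher.

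Mrps12 starts 172 bp from Sars2, the gene of the mitochondrial seryl-tRNA synthetase. Sars2 was at 12.5 and 11.4 CPM in the controls and 12.8 and 12.1 CPM in the knockout-labelled libraries, so its groups overlapped where those of Mrps12 did not (log2 fold change 0.065 ± 0.13, edgeR adjusted p 0.750). The difference between the 2 genes was not tested. Mrpl44, for an RNase III-like large-subunit protein, starts 125 bp from Wdfy1 and was at 20.2 and 15.8 CPM against 19.1 and 15.3 CPM (-0.063 ± 0.14, adjusted p 0.761). Wdfy1 fell from 67.4 and 61.6 CPM to 33.6 and 34.0 CPM (-0.93 ± 0.08, adjusted p 4.8e-08). Likewise Mrpl40 starts 175 bp from the histone chaperone gene Hira, which rose from 19.8 and 20.1 CPM to 27.3 and 28.9 CPM (0.50 ± 0.10, adjusted p 9.9e-04). Mrpl40 itself was at 23.4 and 20.2 CPM against 21.8 and 21.9 CPM (0.0062 ± 0.11, adjusted p 0.973). In other pairs the log2 fold changes were alike, such as Mrpl48 (0.29) and Rab6a (0.30), or Mrpl14 (0.27) and Tmem63b (0.31). Both of these pairs share exons on opposite strands, over 8.68% of the exonic length of Mrpl48 and 11.2% of that of Mrpl14. Whether counting used strand is not given, and the part of shared reads in this likeness was not tested. Sars2, Wdfy1, Hira, Zfp661, Rab6a and Tmem63b were chosen after their values were seen.

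**Figure D3:**
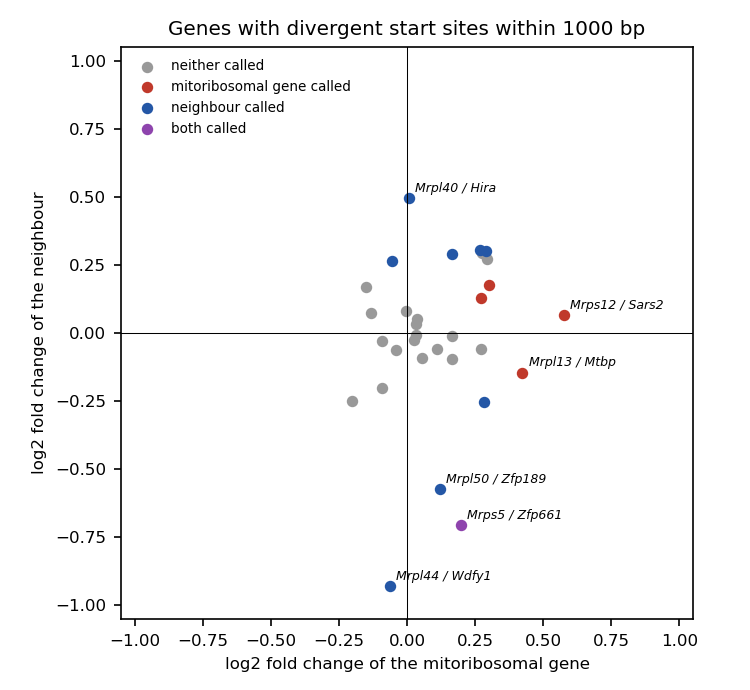
Log2 fold change of each mitochondrial ribosomal protein gene (horizontal axis) and of the protein-coding gene that starts within 1000 bp on the opposite strand (vertical axis), for 31 pairs coloured by which gene was called. Only Mrps5 and Zfp661 were both called, in opposite directions, and Wdfy1 lies near -0.93 while its neighbour Mrpl44 lies near 0.

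The promoters are shown for 5 called genes because they carry the motifs for which this class is known, and because they differ in the direction of change. Nuclear genes for mitochondrial proteins often hold sites for NRF1 and for ETS factors such as GABP. Mrpl51, also called higher, has an ETS match at -90 from its start and is not printed. The RefSeq promoter table (GRCm38.p6, 250 bases before to 50 after the start) held 69 of the 78 genes. For 46 of the 69 the RefSeq start lay within 50 bases of the GENCODE start, which gave the neighbour distances above. Motif positions, that of Mrpl51 included, are counted from the RefSeq start. Each line gives 100 bases before the start and 30 after it, 5′ to 3′ on the gene's strand, with matches to the NRF1 motif GCGCATGCG or the ETS core CCGGAAG, on either strand, in capitals.
Mrpl9 (called lower, + strand, chr3:94443236-94443365): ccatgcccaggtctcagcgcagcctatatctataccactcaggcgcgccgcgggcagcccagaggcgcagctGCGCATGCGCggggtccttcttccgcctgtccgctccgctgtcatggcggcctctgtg
Mrpl17 (called lower, - strand, chr7:105811058-105811187): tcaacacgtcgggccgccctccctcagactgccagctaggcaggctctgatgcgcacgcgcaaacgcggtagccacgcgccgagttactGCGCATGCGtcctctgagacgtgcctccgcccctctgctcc
Mrpl34 (called higher, + strand, chr8:71464826-71464955): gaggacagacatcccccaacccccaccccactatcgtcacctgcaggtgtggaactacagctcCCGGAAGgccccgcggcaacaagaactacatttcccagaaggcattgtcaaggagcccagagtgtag
Mrpl58 (called higher, + strand, chr11:115403652-115403781): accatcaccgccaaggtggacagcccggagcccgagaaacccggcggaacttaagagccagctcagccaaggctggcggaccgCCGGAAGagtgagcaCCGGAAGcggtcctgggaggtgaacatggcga
Mrps12 (called higher, - strand, chr7:28741792-28741921): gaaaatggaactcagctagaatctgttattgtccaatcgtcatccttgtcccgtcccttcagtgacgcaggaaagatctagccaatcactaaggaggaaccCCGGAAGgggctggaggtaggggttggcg

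The NRF1 motif was found in 7 of the 69 promoters (10.1%), against 2.35% of the 21263 promoters of protein-coding genes in the table. It was in the promoters of 2 called genes, Mrpl9 and Mrpl17, both called lower, and in 0 called higher. The other 5 genes with the motif were not called, and their log2 fold changes were -0.13 in Mrpl10, 0.29 in Mrpl22, 0.17 in Mrpl32, 0.069 in Mrpl39 and 0.17 in Mrps18b. The 7 genes had a median of 0.069, and the 61 tested genes without the motif 0.054. The ETS core was in 24 promoters (34.8%, against 11.6% of coding promoters), among them 4 called higher and 1 called lower. The latter is Mrpl17, with its ETS core at -237, outside the printed stretch. Over all tested genes 16.5% were called higher and 17.2% lower. The 23 tested genes with the ETS core had a median log2 fold change of 0.038, and the 45 without it 0.057.

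The YY1 motif AAGATGGCG was in 8 promoters (11.6%, against 1.83%), 1 of them called higher, and the E-box CACGTG, which reads the same on both strands, in 5 (7.25%, against 7.84%), 2 of them called higher. The TATA box TATAAA was in 4 (5.8%, against 12.6%), and in 0 promoters of called genes. A match is a run of letters in this window and was not tested for binding or for a link with the changes.

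Other parts of mitochondrial translation were compared from the same fit. Calls in these and the following lists stand beside 16.5% of all tested genes called higher and 17.2% called lower. Of the 5 subunit genes of the mitochondrial ribosome with other names, Ptcd3, for a small-subunit protein that helps admit mRNA, rose from 195.4 ± 0.02 to 239.7 ± 5.61 CPM (log2 fold change 0.29 ± 0.06, SE, n = 2, edgeR adjusted p 0.0010). Dap3, for a GTP-binding small-subunit protein, fell from 95.1 ± 1.89 to 83.1 ± 6.45 CPM (-0.19 ± 0.07, adjusted p 0.045). That call was lost under 8 of the alternatives, among them without control replicate 1 (adjusted p 0.253), control replicate 2 (0.151) or knockout replicate 2 (0.224). Chchd1, Aurkaip1 and Gadd45gip1 were not called.

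Of 14 translation factor genes 2 rose and 2 fell (14.3% each, median 0.0014). Lrpprc, an mRNA-stabilising factor, was at 196.2 ± 3.17 CPM in the controls and 241.1 ± 1.69 CPM in the knockout-labelled libraries, a rise (0.30 ± 0.06, edgeR adjusted p 9.0e-04). Tufm, the elongation factor, also rose (0.25 ± 0.07, adjusted p 0.010; without control replicate 1, 0.093, and without control replicate 2, 0.124). The initiation factor gene Mtif2 and the GTPase gene Guf1 fell, both by -0.33 to -0.34 log2 units (adjusted p 0.0042 and 0.0066). Mtif2 was lost without control replicate 1 (0.064) and Guf1 without knockout replicate 2 (0.058).

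Assembly factors and synthetases were called lower more often than the ribosomal proteins they serve, though the difference between the lists was not tested. Of 24 assembly factor genes 1 rose and 7 fell (median -0.16; 29.2% lower). Rbfa, which acts on the small-subunit rRNA, rose (0.52 ± 0.09, edgeR adjusted p 2.7e-04), while the large-subunit GTPase gene Gtpbp10 (-0.45 ± 0.07, adjusted p 9.0e-05) and the RNA-binding gene Fastkd2 (-0.33 ± 0.07, adjusted p 0.0019) fell. The falls numbered 4 with scaling by library size alone and 3 without control replicate 1. Of 17 mitochondrial aminoacyl-tRNA synthetase genes 0 rose and 7 fell (median -0.11; 41.2% lower), with the smallest adjusted p in Iars2 (-0.38 ± 0.06, adjusted p 1.1e-04) and Rars2 (-0.37 ± 0.09, adjusted p 0.0033). The falls numbered 3 with scaling by library size alone, 4 under DESeq2, 3 without control replicate 1 and 3 without control replicate 2.

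Of the 13 mRNAs that the mitochondrial ribosome translates, 11 were tested, of which 7 rose and 0 fell (median 0.60), and their sum was 12550 and 11966 CPM in the controls and 13167 and 16680 CPM in the knockout-labelled libraries, with knockout 2 well above the rest. mt-Nd1, a complex I subunit, was at 478.8 and 468.6 CPM in the controls and 732.1 and 1015 CPM in the knockout-labelled libraries (0.88 ± 0.09, edgeR adjusted p 5.7e-07). mt-Nd4, of the same complex, was at 232.0 and 194.0 CPM against 336.4 and 553.2 CPM (1.06 ± 0.14, adjusted p 5.1e-06). The 2 rRNAs of the mitochondrial ribosome are targets of rRNA depletion, so their counts do not give their amount: mt-Rnr1 was at 26.0 and 29.8 CPM against 37.2 and 49.2 CPM and was called higher (0.63 ± 0.12, adjusted p 2.6e-04), and mt-Rnr2 was at 1089 and 979.3 CPM against 1203 and 784.0 CPM and was not called. Both rRNAs were called higher without knockout replicate 2, and 1 of the 2 was called lower without knockout replicate 1.

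Among 13 genes of mitochondrial DNA transcription and replication, 2 rose (15.4%) and 1 fell (7.69%), with a median of -0.018. Ssbp1, which coats single-stranded mitochondrial DNA, rose (0.40 ± 0.07, edgeR adjusted p 2.2e-04), and so did the helicase gene Twnk (0.26 ± 0.09, adjusted p 0.026), which lies head to head with Mrpl43. Twnk shares exons with Mrpl43 over 33.4% of the exonic length of Mrpl43, and its call was lost under DESeq2 (0.063), without control replicate 2 (0.332) and without knockout replicate 2 (0.057). The nuclease gene Mgme1 fell (-0.24 ± 0.08, adjusted p 0.034; 0.380 without control replicate 2 and 0.068 without knockout replicate 1).

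Of 11 nuclear regulators of mitochondrial biogenesis 5 rose (45.5%) and 1 fell (9.09%), with a median of 0.15. Myc rose from 7.37 ± 0.03 to 13.5 ± 1.06 CPM (0.87 ± 0.15, with an adjusted p of 1.0e-04 by edgeR), and the coactivator gene Pprc1 from 245.7 ± 14.9 to 339.5 ± 46.6 CPM (0.47 ± 0.08, adjusted p 1.0e-04), while Esrrb, which is also a pluripotency factor, fell from 840.2 ± 17.1 to 661.2 ± 39.1 CPM (-0.35 ± 0.06, adjusted p 1.7e-04). There were 3 rises without control replicate 2.

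Nuclear genes of the respiratory chain went both ways. Of 36 complex I genes 1 rose and 5 fell (median 0.063), with Ndufb8 higher (0.34 ± 0.12, edgeR adjusted p 0.037; not called without control replicate 1, control replicate 2 or knockout replicate 1, at 0.110, 0.223 and 0.109) and Ndufa7 lower (-0.49 ± 0.08, adjusted p 1.1e-04). Ndufv1, of the NADH-binding part, also fell (-0.35 ± 0.07, adjusted p 9.6e-04). Of 38 nuclear genes of complexes II to V 4 rose and 7 fell (median -0.023, range -0.66 to 0.49), and their summed level was 5852 and 5936 CPM in the controls against 5551 and 5398 CPM, so that the groups did not overlap. The iron-sulphur subunit gene Sdhb fell from 71.8 ± 5.27 to 45.4 ± 4.11 CPM (-0.66 ± 0.08, adjusted p 4.9e-06) and Cox7c by 0.57 log2 units (adjusted p 1.4e-05). Cox4i1 and Uqcr10 rose by 0.25 ± 0.06 and 0.35 ± 0.10; both calls were lost without control replicate 1 (0.083 and 0.103), that of Cox4i1 also without control replicate 2 (0.081) and that of Uqcr10 also without knockout replicate 2 (0.109). Without single libraries the complex I falls numbered 2 (control replicate 1), 3 (control replicate 2) and 2 (knockout replicate 2). Those of complexes II to V numbered 2 without control replicate 2 and 12 without knockout replicate 1, and the rises 1 without either control.

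Stress genes linked to failing mitochondria went both ways: 4 of 18 rose (22.2%) and 9 fell (50%), with a median of -0.19. The chaperonin gene Hspd1, a mark of the mitochondrial unfolded protein response, rose from 642.4 ± 15.8 to 1062 ± 37.3 CPM (0.73 ± 0.06, edgeR adjusted p 1.2e-08), and Atf5, a transcription factor of the same response, from 4.83 ± 1.12 to 9.10 ± 0.32 CPM (0.92 ± 0.19, adjusted p 7.0e-04). The falls with the smallest adjusted p were in Chac1 (-3.34 ± 0.22 log2 units, edgeR adjusted p 5.2e-10) and Atf4 (-0.76 ± 0.07, adjusted p 3.7e-08), of the integrated stress response. The number of rises was 2 under DESeq2, without control replicate 1, without control replicate 2 and without knockout replicate 2.

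Cytosolic ribosomal protein genes were compared as the other ribosome of the cell. Of 83 tested, 4 rose and 38 fell (4.82% and 45.8%, median -0.16), against 16.5% and 17.2% of all tested genes. Both knockout-labelled libraries lay below both controls for 50 of them (60.2%). This was so for 13 of the 77 mitochondrial genes (16.9%) and 33.3% of all tested genes. The summed cytosolic level was 47507 and 48213 CPM in the controls and 41924 and 41862 CPM in the knockout-labelled libraries, 12.5% lower (exact permutation test over libraries, 2-sided, p = 0.333, the smallest possible here). Rpl10a fell from 927.0 ± 3.74 to 616.9 ± 19.0 CPM (-0.59 ± 0.06, with an adjusted p of 1.8e-07 by edgeR), and Rpl37a from 331.7 ± 0.71 to 226.5 ± 13.5 CPM (-0.55 ± 0.06, adjusted p 1.5e-06). Rpl39l, a copy with restricted expression, rose (0.89 ± 0.16, adjusted p 2.3e-04). The rises numbered 7 without knockout replicate 1 and 7 without knockout replicate 2. Many cytosolic genes have processed pseudogene copies that can share reads, and the difference between the 2 classes was not tested.

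**Figure D4:**
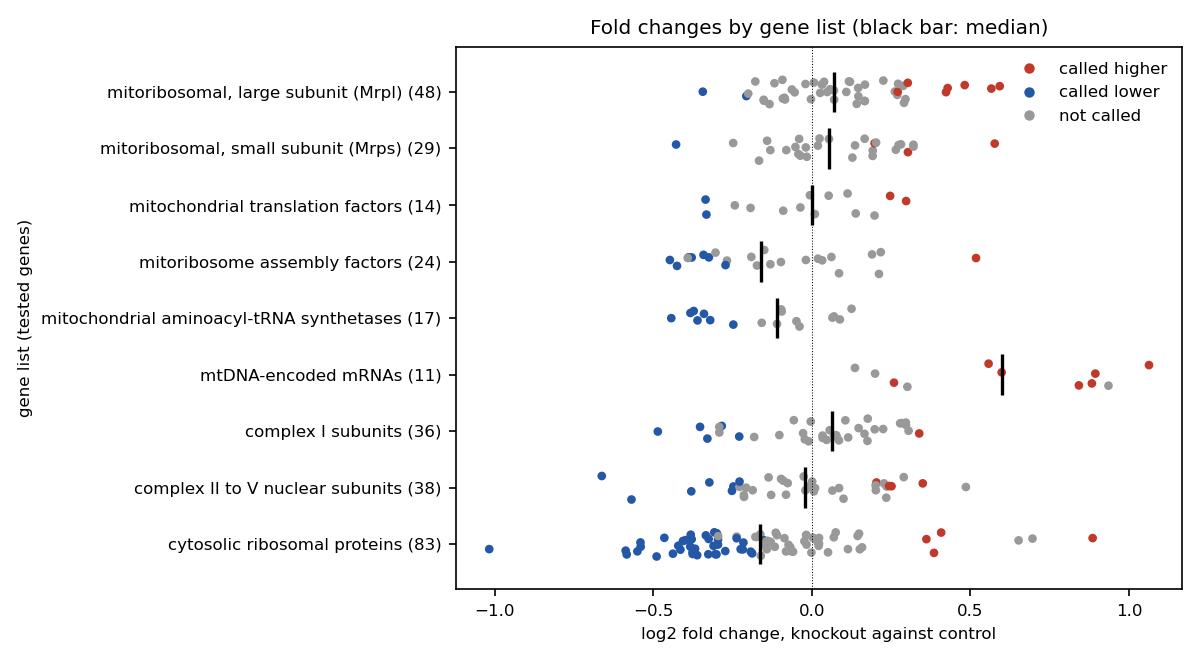
Log2 fold changes, knockout against control, of the tested genes in 9 lists, 1 point per gene, red where called higher, blue where called lower, with a black bar at each median. The medians of the mitochondrial ribosomal lists, 0.070 (Mrpl) and 0.054 (Mrps), lie just above 0, that of the cytosolic ribosomal proteins at -0.16 and that of the mitochondrially encoded mRNAs at 0.60.

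Most genes of the class are short, and the share of calls varied with exonic length over all tested genes. In the shortest quartile (53 to 2089 bases), which holds 34 of the 77 genes, 14.4% of all genes were called higher and 9.11% lower, with a median log2 fold change of 0.090; of the 34 genes of the class there, 4 rose and 0 fell. In the next quartile (2090 to 3721 bases) the shares were 15.6% and 15.8%, the median was 0.0078, and 1 of 20 genes of the class rose and 2 fell. In the third (3722 to 6084 bases) they were 16.2% and 20.2%, with 2 of 11 higher and 0 lower, and in the longest 19.9% and 23.4%, with 3 of 12 higher and 1 lower. Across the 77 genes Spearman's rho between log2 fold change and exonic length was -0.17, and between log2 fold change and mean control CPM -0.34. These rhos are across genes measured in the same 4 libraries, which are not independent replicates, and are given as a description.

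Symbols of annotated copies fall outside the rule used here. Mrpl48-ps had 14 and 22 control counts against 27 and 62, Mrpl23-ps1 had 7 and 6 against 7 and 3, and the 3 Mrps36 copies had 1 count or none in each library. These counts are small beside those of Mrpl48 (343 and 363 against 428 and 448). How reads that map to both were treated is not given.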

How the data were processed

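RNA was measured in 4 libraries, 2 per group, from rRNA-depleted total RNA, reverse-transcribed with random primers, sequenced in pairs and described by the submitters as strand-specific. The authors deposited whole-number counts per gene symbol; per the submitters' processing notes, reads passed through cutadapt, HISAT2 and featureCounts on mm10. Tool versions, annotation, strand setting and the treatment of multi-mapped reads: not given in the sources used here. Columns spelled OK were mapped to samples titled KO; unmapped columns numbered 0. Genes were filtered (filterByExpr, minimum count 10, minimum total 15; 17482 of 55353 symbols), scaled by TMM and tested with edgeR 4.0.16 in R 4.3.3 (quasi-likelihood F test, 2-sided, 2 residual degrees of freedom, no covariate, prior count 0.125), with Benjamini-Hochberg adjustment over all tested genes at 0.05. The standard error is the log2 fold change divided by the square root of F. CPM use TMM-scaled totals, except sums of cell type markers and the floor, which use total counts; 3 counts are 0.118 to 0.133 CPM in a library. The labels mention no molecular identifiers. Positions and exonic lengths are from GENCODE M21, where 53281 symbols matched 1 gene.

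Replicates differed beyond sampling noise (chi-square per degree of freedom 3.36 for the controls and 11.6 for the knockout-labelled pair), so all 4 were kept as separate samples. The test was tested on simulated data, where it called 22 of 50 genes changed 1.25-fold and 38 of 50 changed 1.5-fold. It also called 7 of 16885 unchanged genes. The simulation changed only 50 genes at each of 1.25, 1.5, 2 and 4-fold. In the data 2877 genes were called higher and 3000 lower. An adjusted p depends on how many genes change, so these rates need not hold in the data. A gene not called here may still have changed by a small amount. The genes of the class, the lists, the motifs and the alternatives were chosen with earlier results of these data known. Named genes are the called genes of the class, up to 10 per direction; its 4 most and 2 least abundant genes per length; the Mrps18 paralogs; the untested gene; Ssrp1 and Supt16; and up to 2 rises and 2 falls per list by adjusted p. One gene that this rule names is not reported here. Alternatives were DESeq2 1.42.0, other scalings and filters, a replicate block and leaving out each library.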

Additional observations from a re-analysis of the deposited data

How the results depend on the processing

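The direction of the median held under every alternative run, and the number of calls did not. The share of all tested genes called under each alternative is not given here, so these counts have no such share beside them. With scaling by library size alone 19 genes of the class were higher and 1 lower, the medians were 0.152 (all), 0.136 (small subunit) and 0.152 (large subunit), where the median of all tested genes was 0.087, and the summed level was 10.2% higher. With upper-quartile scaling the medians were 0.096, 0.080 and 0.096 and the sum 5.98% higher. The sum was 4.46% higher with RLE size factors, 3.42% with no filter on low counts and 5.32% with at least 5 CPM in 2 libraries, where the large-subunit median was 0.088. DESeq2 called 1 gene lower and 8 higher. Without genes that share exons the medians were 0.089 (all) and 0.128 (small subunit). Leaving out 1 library at a time gave 6 to 15 genes higher and 1 to 5 lower, medians of 0.052 to 0.086 (all), 0.032 to 0.083 (small subunit) and 0.055 to 0.110 (large subunit), and a sum 3.59% to 4.36% higher; the lowest counts came without control replicate 1 (6 higher, 1 lower), the highest without knockout replicate 1 (15 higher, 5 lower), and 6 were higher without control replicate 2. With the replicate block 11 genes were higher and 5 lower. Same-numbered libraries did not deviate together across genes (correlation 0.008). With 1 difference per group, this cannot show whether they shared a culture or preparation. Mrps18a, not called in any setting, was at -0.097 log2 units without knockout replicate 2 and changed sign, to 0.064 with scaling by library size alone, 0.0074 with upper-quartile scaling, 0.027 without control replicate 2 and 0.052 without knockout replicate 1. Among the other lists, complex I had 5 higher and 2 lower with scaling by library size alone, and complexes II to V 10 higher; the cytosolic ribosomal proteins called lower ranged from 31 to 54 and the mitochondrially encoded mRNAs called higher from 5 to 8. The cause of these shifts was not tested.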
